A study of Mus musculus with 15 samples.

Results

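Arntl, which encodes the clock transcription factor BMAL1, differed 10.1-fold between the highest and the lowest of 15 mouse aortas taken at a single hour of the day. The 5 aortas with most Arntl were set against the 5 with least, so 10 of the 15 libraries enter the comparison and the other 5 lie between them. The libraries were ranked by Arntl CPM (CPM, the count of a gene scaled to a library total of 1000000), and this ranking alone made the groups. They are therefore not groups of the study, and Arntl itself is described without a test.

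The study sequenced polyadenylated RNA from the thoracic aorta of adult male C57BL/6 wildtype mice aged 10 to 12 weeks, 5 mice for each of 3 treatments. Celecoxib at 30 mg/kg and rofecoxib at 10 mg/kg are inhibitors of the inducible cyclooxygenase, and the third group received the vehicle PEG-400. Each mouse was given 100 µL by gavage, and the aorta was collected 6 hours later at ZT11, that is 11 hours after lights on in a day of 12 hours of light and 12 hours of dark. Libraries were built over several days, and the labels do not tie a library to its day, so a build day and an Arntl rank cannot be told apart.

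BMAL1 pairs with CLOCK or NPAS2 on E-box sequences and switches on the Per, Cry, Nr1d and Dbp genes. PER and CRY proteins then block the pair, while the nuclear receptors REV-ERBα and REV-ERBβ, made from Nr1d1 and Nr1d2, repress Arntl, Clock, Npas2 and Nfil3 through the ROR response element, where RORα activates. In mouse tissues kept in light and dark, Arntl RNA is known to be low towards the end of the light phase, in antiphase to Nr1d1 and Dbp, and smooth muscle, endothelium and perivascular fat all hold a clock of their own.

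In order of falling level, the 5 aortas with most Arntl were vehicle 3 at 11.1 CPM, vehicle 5 at 5.01, celecoxib 5 at 3.52, vehicle 4 at 3.33 and celecoxib 1 at 3.29 CPM. The 5 with least were rofecoxib 3 at 1.71, celecoxib 4 at 1.68, vehicle 2 at 1.62, rofecoxib 2 at 1.36 and celecoxib 2 at 1.10 CPM. Between them stood vehicle 1 and rofecoxib 4 at 2.10 each, celecoxib 3 at 2.003, rofecoxib 1 at 1.74 and rofecoxib 5 at 1.71 CPM. The step from celecoxib 1 to vehicle 1 marks the upper boundary, while the lower boundary runs between rofecoxib 5 and rofecoxib 3, which each had 53 reads. The exact Poisson interval for 53 reads ran from 39.7 to 69.3 reads, which covers the counts of 9 libraries, ranks 6 to 14, and it covers counting error only. Vehicle 3 had 343 Arntl reads, against 155 in the library next to it. Arntl lies at chr7:120350777-120457838 of mm9, the build of the deposited coordinates.

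**Figure D1:**
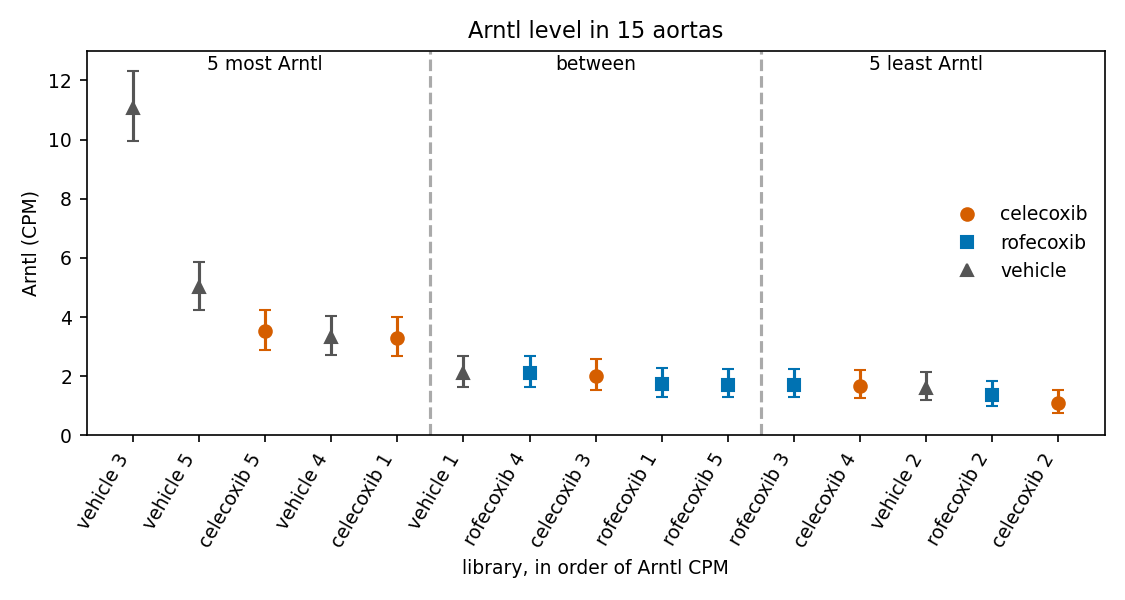
Arntl CPM in the 15 libraries, in order of falling level, coloured by treatment; bars are exact 95% Poisson intervals of the read count, and dashed lines separate the 5 libraries with most Arntl, the 5 between and the 5 with least. Vehicle 3 stands alone at 11.1 CPM, the other libraries with most Arntl span 3.29 to 5.01 CPM, and the 5 with least span 1.10 to 1.71 CPM.

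The rank groups did not hold the treatments evenly. The 5 aortas with most Arntl came from 2 celecoxib and 3 vehicle mice and from 0 rofecoxib mice, and the 5 with least from 2 celecoxib, 2 rofecoxib and 1 vehicle mouse. By treatment, Arntl ranged over 1.10 to 3.52 CPM in celecoxib aortas, 1.36 to 2.10 CPM in rofecoxib aortas and 1.62 to 11.1 CPM in vehicle aortas. The treatment was therefore added as a term to a second fit, and a slope on log2 Arntl CPM was fitted within treatments over all 15 libraries.

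Totals were nearly equal, from 30937046 to 30967115 counts a library, with 19158 to 19746 genes detected. No source used here says how the totals came to be so nearly equal, so they may not be the depth of sequencing, and the Poisson intervals take the counts as deposited. Smooth muscle markers dominated every library, with a summed level of 75630 to 83563 CPM in the aortas with most Arntl and 82879 to 91925 CPM in those with least. The aortas also held perivascular fat, endothelium, nerve and a trace of blood, whose markers are given beside the results they move with. In bulk tissue, fewer cells of a type and less RNA per cell cannot be told apart. Celecoxib 1 stood far from every other library over the whole transcriptome. The chi-square per gene between its counts and those of another library was 62.6 to 105.5. Pairs without celecoxib 1 gave 13.1 to 74.3. The reason was not tested.

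Regulatory letter patterns of the clock were searched, on both strands, in RefSeq promoters of GRCm38.p6, each reaching 250 bases before to 50 bases after a start site. They were the E-box CACGTG, the D-box TTATGNAA that DBP, TEF, HLF and NFIL3 share, and the ROR response element, in which AAN precedes the core TAGGTCA, and that core alone, which the element contains. Of 32851 promoters, 7.15% held the E-box, 3.38% the D-box, 0.219% the ROR response element and 2.61% the core. For 17 of 19 clock genes a promoter was matched, in 22 windows: 5 genes held an E-box, 2 a D-box, 1 the ROR response element and 2 its core. Shown here, with the match in capitals, are Arntl (chr7:113207261-113207560, plus strand, ROR response element), Nfil3 (chr13:52980990-52981289, minus strand, the core on the opposite strand), Ciart (chr3:95882179-95882478, minus strand, 3 E-boxes) and Per3 (chr4:151044616-151044915, minus strand, 2 D-boxes), because the results on these 4 genes turn on single libraries or differ in direction.
Arntl: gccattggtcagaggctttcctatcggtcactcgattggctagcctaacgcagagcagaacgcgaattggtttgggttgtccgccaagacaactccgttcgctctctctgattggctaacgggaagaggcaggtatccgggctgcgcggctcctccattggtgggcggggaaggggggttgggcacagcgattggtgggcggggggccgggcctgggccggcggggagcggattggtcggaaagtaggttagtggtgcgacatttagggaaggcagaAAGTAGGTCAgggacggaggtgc
Nfil3: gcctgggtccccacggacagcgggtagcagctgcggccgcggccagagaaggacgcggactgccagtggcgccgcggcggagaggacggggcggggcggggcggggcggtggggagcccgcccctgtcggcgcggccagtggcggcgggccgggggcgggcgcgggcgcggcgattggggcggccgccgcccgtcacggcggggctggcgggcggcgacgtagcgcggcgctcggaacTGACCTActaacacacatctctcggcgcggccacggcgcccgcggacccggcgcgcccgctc
Ciart: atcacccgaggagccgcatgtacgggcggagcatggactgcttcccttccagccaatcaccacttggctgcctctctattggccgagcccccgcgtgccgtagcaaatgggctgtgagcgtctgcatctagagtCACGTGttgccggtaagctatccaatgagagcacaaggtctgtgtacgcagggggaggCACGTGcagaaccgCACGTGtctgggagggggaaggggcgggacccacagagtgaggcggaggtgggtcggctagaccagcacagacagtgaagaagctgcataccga
Per3: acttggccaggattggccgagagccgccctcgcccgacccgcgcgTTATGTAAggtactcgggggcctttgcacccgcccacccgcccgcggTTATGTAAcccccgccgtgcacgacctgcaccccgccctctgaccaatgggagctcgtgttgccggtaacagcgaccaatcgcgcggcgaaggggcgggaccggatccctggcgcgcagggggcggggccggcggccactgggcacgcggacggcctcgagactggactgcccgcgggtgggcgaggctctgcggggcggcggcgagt
Counted from the start site, the match in Arntl covers bases 28 to 37, that in Nfil3 bases -12 to -6, and those in Ciart begin at -116, -58 and -44. The Per3 matches begin at -205 and -158. A match is a stretch of letters and says nothing about binding in these aortas, and the 3 matched Clock windows held none of the patterns.

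No gene passed an adjusted p of 0.05 between the 5 aortas with most Arntl and the 5 with least. By edgeR's quasi-likelihood test, 0 of 14777 genes were called, the smallest adjusted p (Benjamini-Hochberg) was 0.487, and 1336 genes (9.04%) had an unadjusted p under 0.05, 722 of them higher (4.89%) and 614 lower (4.16%) in the aortas with most Arntl. The CPM values of the groups did not overlap for 296 genes (2.0%), 170 of them higher (1.15%) and 126 lower (0.853%). With treatment as a term, 844 genes (5.71%) had an unadjusted p under 0.05 and 1 was called, the fatty acid desaturase Scd2, with a log2 fold change of -0.85 and adjusted p = 0.0312 (0.00677% of genes, lower). Limma-voom called 0 genes and DESeq2 called 60 (0.406%), of which 36 were higher (0.244%) and 24 lower (0.162%). The genes named below therefore carry their levels, their fitted log2 fold changes with standard errors and, unless they were chosen for their likeness to Arntl, their unadjusted p, and each had an adjusted p of at least 0.487 by edgeR in this comparison. The 60 genes of DESeq2 include Tcta, Hrasls, Lrg1, Crybg3, Kremen1, Dtnbp1, Myd88, Fam149a, Ptprz1 and Ppfia4. They also include Pecam1, Chrna1, Dio2 and Pdk4. Clock, Per3 and Hlf are not among them (DESeq2 adjusted p = 0.148, 0.164 and 0.217).

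Clock, the partner of BMAL1, had the highest correlation with Arntl among 19 clock genes. In order of falling Arntl it stood at 67.6, 47.6, 45.7, 48.7 and 49.5 CPM in the 5 aortas with most Arntl, against 43.8, 39.5, 43.4, 40.3 and 39.2 CPM in the 5 with least. All 5 values of the first group lay above all 5 of the second, and vehicle 3 was the highest in Clock as in Arntl. Clock had a log2 fold change of 0.32 ± 0.09 (SE), 1.25-fold, with unadjusted p = 0.00516. Within treatments, Clock had a slope of 0.22 ± 0.04 log2 units per unit of log2 Arntl CPM, with unadjusted p = 4.01e-05 and adjusted p = 0.117 by edgeR over 15133 genes. Over the 15 libraries the Pearson correlation of log2 CPM with Arntl was 0.898 and Spearman's rho 0.761, with permutation p = 3e-05 and 0.00162 (0.00057 and 0.0308 adjusted over 19 clock genes). The permutations took no account of treatment, and the adjustment was over the clock genes alone, not over all genes. Arntl also made the groups, so this correlation and the separation of the groups are not separate results. Without vehicle 3 and vehicle 5, the libraries farthest from the median of Arntl, r was 0.764, and within treatments it was 0.876. The 5 libraries between had 39.3 to 46.0 CPM of Clock, which overlaps the lower end of the group with most Arntl and all of the group with least. Clock lies at chr5:76639790-76734019 of mm9.

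Of the other activators, Npas2, Rora and Arntl2 overlapped between the groups. Npas2, the alternative partner of BMAL1, had 12.34 CPM in vehicle 3 and 3.20 to 5.56 CPM in the other 4 aortas with most Arntl, against 4.68 to 7.82 CPM in those with least. Its log2 fold change was -0.08 ± 0.32 and turned positive without celecoxib 1 (0.0753), vehicle 2 (0.0077) or vehicle 4 (0.0204). Rora, which encodes RORα, stayed within 60.6 to 72.3 CPM against 61.2 to 69.2 CPM, and Arntl2, a relative of Arntl, within 5.75 to 9.20 CPM against 6.59 to 7.75 CPM.

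REV-ERB transcripts did not separate the groups. Nr1d1 had 143, 145, 109, 80.9 and 238 CPM in the aortas with most Arntl, against 218, 82.8, 189, 161 and 200 CPM in those with least. Celecoxib 1 was the highest of its own group and above every aorta with least Arntl, while vehicle 4 was the lowest of all 10. Its fitted log2 fold change was -0.24 ± 0.32 (unadjusted p = 0.474), -0.52 without celecoxib 1 and -0.08 without vehicle 4. Nr1d2 spanned 178 to 229 CPM, against 201 to 265 CPM, with a log2 fold change of -0.22 ± 0.09 (unadjusted p = 0.0395). Its groups overlapped through celecoxib 1 (229 CPM) and celecoxib 4 (201 CPM). Pearson's r with Arntl over 15 libraries was -0.124 for Nr1d1 and -0.525 for Nr1d2, with permutation p = 0.670 and 0.0445 and adjusted p = 0.748 and 0.141, and rho was -0.104 and -0.496, with adjusted p = 0.820 and 0.284.

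Among the 11 clock repressors, 1 was higher and 2 were lower at an unadjusted p under 0.05, against 4.89% and 4.16% of all genes, and the median log2 fold change was -0.0024, against 0.0061 over all genes tested. Per3, a period protein, had 124, 130, 150, 123 and 166 CPM in the aortas with most Arntl, against 190, 181, 153, 168 and 220 CPM in those with least. Of the 5 aortas with most Arntl, 4 lay below every aorta with least, and celecoxib 1 was the exception. Per3 had a log2 fold change of -0.39 ± 0.12, 0.762-fold, with unadjusted p = 0.00769, and a slope within treatments of -0.20 ± 0.05 with adjusted p = 0.264. Per3 correlated with Arntl at r = -0.805 and rho = -0.511, with permutation p = 0.00044 and 0.0540 and adjusted p = 0.00418 and 0.284. Without the 2 farthest libraries r was -0.631.

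The remaining Period and Cryptochrome genes overlapped widely. Per1, which also responds to glucocorticoids, had 107, 209, 214, 191 and 411 CPM in the aortas with most Arntl, against 198, 220, 168, 216 and 240 CPM in those with least. Vehicle 3 was the lowest of all 10 and celecoxib 1 the highest, so the same group held both ends. Its log2 fold change of 0.13 ± 0.30 was -0.22 without celecoxib 1. Per2 ran from 204 CPM in vehicle 3 to 356 CPM in vehicle 5, against 238 to 341 CPM. Cry1 ran from 14.3 CPM in vehicle 3 to 33.9 CPM in vehicle 4, against 14.4 to 27.0 CPM, with a log2 fold change of 0.24 ± 0.23 (unadjusted p = 0.322), and 0.10 without vehicle 4. Cry2 spanned 78.7 to 108 CPM, against 85.2 to 103 CPM.

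Ciart, a repressor of the BMAL1 and CLOCK pair that the deposited table lists as Gm129, had 5.88, 18.3, 12.6, 13.8 and 67.3 CPM in the aortas with most Arntl, against 19.8, 14.1, 18.4, 25.3 and 28.4 CPM in those with least. Vehicle 3 was the lowest of all 15 libraries and celecoxib 1 the highest. Its log2 fold change of 0.19 ± 0.57 was -0.75 without celecoxib 1, so 1 library set its sign. Bhlhe40, a basic helix-loop-helix repressor, had 66.7, 48.5, 25.0, 39.4 and 95.5 CPM, against 45.9, 34.4, 43.6, 36.0 and 63.3 CPM, and its log2 fold change of 0.31 ± 0.33 was -0.01 without celecoxib 1. Bhlhe41, its close relative, had 34.6 to 44.0 CPM in the first 4 aortas with most Arntl and 71.1 CPM in celecoxib 1, against 40.2 to 80.8 CPM, with a log2 fold change of -0.36 ± 0.22 (unadjusted p = 0.134), and -0.58 without celecoxib 1.

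Nfil3, the D-box repressor, stood at 25.5, 22.3, 25.0, 26.2 and 10.8 CPM in the aortas with most Arntl, against 9.11, 20.1, 16.2, 13.8 and 6.52 CPM in those with least. Of the 5 aortas with most Arntl, 4 exceeded every aorta with least, and celecoxib 1 lay among the others. For Nfil3 this gave a log2 fold change of 0.73 ± 0.31, 1.66-fold, with unadjusted p = 0.0415. With treatment as a term it was 0.51 (unadjusted p = 0.228).

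The PAR bZIP outputs Dbp and Hlf stood low in the same 4 aortas in which Nfil3 stood high. Dbp, which activates D-box genes, had 109, 129, 119, 76.6 and 237 CPM in the aortas with most Arntl, against 212, 122, 191, 187 and 240 CPM in those with least. Celecoxib 1 and celecoxib 4 crossed the groups, and without celecoxib 1 the log2 fold change of -0.49 ± 0.29 (unadjusted p = 0.125) was -0.83. Hlf had 66.0, 77.6, 72.7, 62.2 and 96.8 CPM, against 104, 91.2, 89.8, 98.3 and 123 CPM. Again 4 aortas lay below every aorta with least Arntl, and celecoxib 1 did not. Hlf had a log2 fold change of -0.43 ± 0.14, 0.745-fold, with unadjusted p = 0.0118, and its correlation with Arntl was r = -0.698 and rho = -0.479, with permutation p = 0.00389 and 0.0748 and adjusted p = 0.0246 and 0.284. Tef, the third PAR bZIP factor, spanned 402 to 644 CPM, against 457 to 601 CPM.

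**Figure D2:**
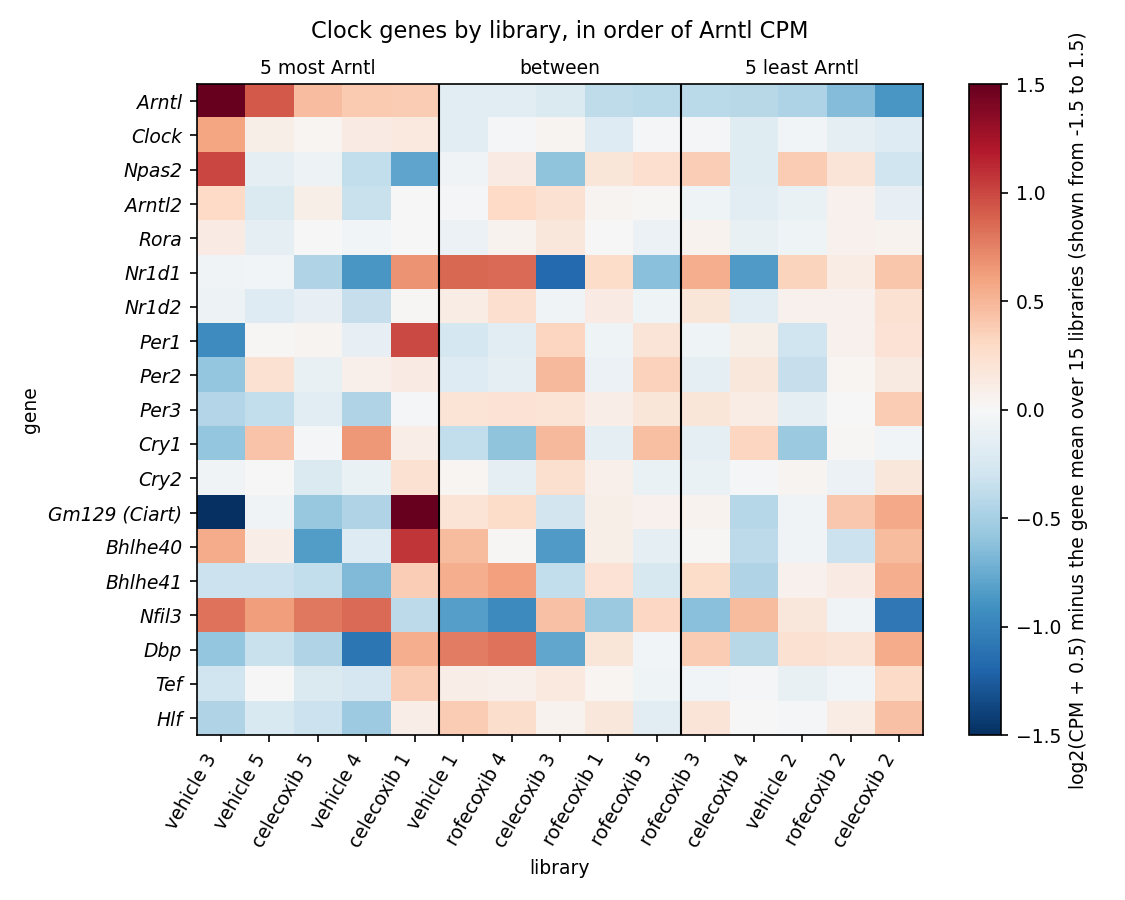
Levels of 19 clock genes (rows) in the 15 libraries (columns, in order of falling Arntl), each as log2(CPM + 0.5) minus its mean over the 15 libraries, with lines separating the rank groups. Clock follows the order of Arntl, while celecoxib 1 differs from the other 4 aortas with most Arntl in Ciart, Bhlhe41, Nfil3 and Dbp.

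Dbp, Nr1d1, Bhlhe41 and Nfil3 varied together across the 15 libraries. The correlations with Dbp that follow were added after the values were seen. Over the 15 libraries, Dbp correlated with Bhlhe41 at r = 0.965 and rho = 0.943, with permutation p = 1e-05 for each, the smallest that 100000 permutations can give, and adjusted p = 9e-05 and 6e-05 over 18 genes. With Nfil3 it was r = -0.889 and rho = -0.907 (adjusted p = 9e-05 and 6e-05), and with Nr1d1 r = 0.899 and rho = 0.943 (adjusted p = 0.000135 and 6e-05). Without vehicle 4 and rofecoxib 4, the libraries farthest from the median of Dbp, r was 0.951, -0.868 and 0.872 for Bhlhe41, Nfil3 and Nr1d1 in that order. Arntl against Dbp gave r = -0.461 and rho = -0.314, with permutation p = 0.0836 and 0.255 and adjusted p = 0.215 and 0.540. Clock against Dbp gave r = -0.424 and rho = -0.400, with permutation p = 0.111 and 0.139 and adjusted p = 0.166 and 0.208. The 2 aortas with the most Dbp were rofecoxib 4 (287 CPM) and vehicle 1 (278 CPM), both of the 5 between, and the one with the least was vehicle 4 (76.6 CPM), of the 5 with most Arntl.

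**Figure D3:**
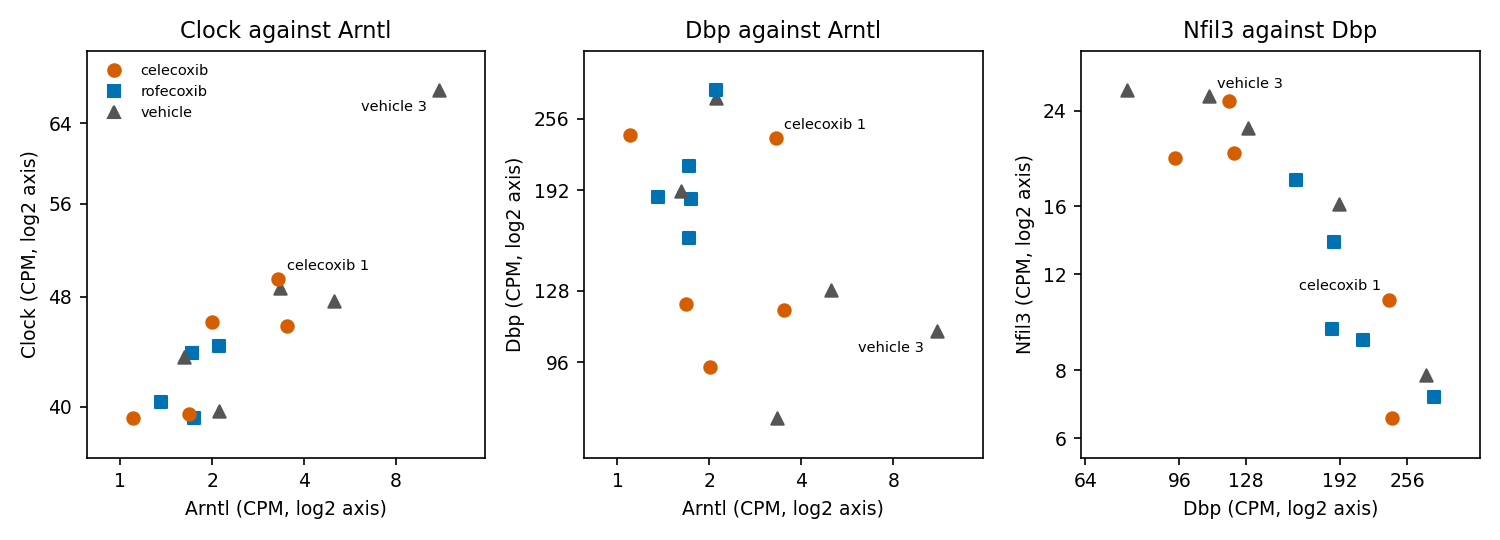
Clock against Arntl, Dbp against Arntl and Nfil3 against Dbp in the 15 libraries (CPM, log2 axes), by treatment, with vehicle 3 and celecoxib 1 named. The first panel rises (r = 0.898), the second scatters (r = -0.461) and the third falls (r = -0.889), with celecoxib 1 off the other aortas with most Arntl in the second panel and on the line of the third.

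Across the whole transcriptome, the genes whose log2 CPM was most like that of Arntl were chosen by that likeness and are given here without a test. Because Arntl also made the groups, their separation between the groups and their slopes on Arntl follow in part from that choice. Clock is one of these genes, and was tested above as a clock gene. The 5 highest Pearson correlations over 15 libraries were 0.911 for Myd88, 0.898 for Clock, 0.872 for Baz1b, 0.867 for Dio2 and 0.857 for Cdk17. The 5 lowest were -0.915 for Rnaseh2b, -0.914 for Tcta and Chrna1, -0.868 for Angptl2 and -0.855 for Frs3. Without the 2 farthest libraries, r lay between 0.622 (Baz1b) and 0.853 (Myd88) among the first and between -0.892 (Tcta) and -0.588 (Frs3) among the second.

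Myd88, the adaptor of Toll-like and interleukin-1 receptors, had 46.7, 32.0, 31.4, 31.9 and 38.0 CPM in the aortas with most Arntl, against 25.1, 25.6, 26.6, 23.8 and 23.97 CPM in those with least. The groups did not overlap, and the 5 libraries between had 25.2 to 29.0 CPM. Myd88 had a log2 fold change of 0.52 ± 0.10 and a slope within treatments of 0.29 ± 0.04. Chrna1, the alpha subunit of the muscle acetylcholine receptor, had 1.84, 2.33, 3.36, 2.78 and 2.62 CPM, against 3.88, 4.17, 5.62, 3.94 and 4.91 CPM. All 5 aortas with most Arntl lay below all 5 with least, and vehicle 3 was the lowest. Its log2 fold change was -0.80 ± 0.18, with a slope of -0.51 ± 0.08.

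Tcta had 41.1, 44.6, 46.2, 44.1 and 41.6 CPM in the aortas with most Arntl, against 55.01, 52.5, 53.7, 53.7 and 59.5 CPM in those with least. The 5 libraries between, at 52.3 to 57.5 CPM, stood with the lower Arntl group. For Tcta the log2 fold change was -0.33 ± 0.06 and the slope -0.18 ± 0.03. Dio2, which makes active thyroid hormone and marks brown fat, had 134, 132, 53.1, 94.4 and 69.1 CPM, against 61.9, 50.1, 61.4, 37.6 and 37.1 CPM. Celecoxib 5 overlapped the aortas with least Arntl. Dio2 had a log2 fold change of 0.95 ± 0.26, and the slope within treatments was 0.47 ± 0.10. Angptl2, a secreted angiopoietin-like protein, spanned 153 to 194 CPM, against 197 to 257 CPM, and Rnaseh2b, a subunit of ribonuclease H2, spanned 11.2 to 13.2 CPM, against 13.3 to 16.5 CPM. Neither overlapped between the groups, at log2 fold changes of -0.25 ± 0.09 and -0.28 ± 0.08.

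Over all 15133 genes, the slope on log2 Arntl within treatments called 0 genes by edgeR, with a smallest adjusted p of 0.0680, and 1508 genes (9.96%) had an unadjusted p under 0.05, 815 with a positive slope (5.39%) and 693 with a negative one (4.58%). Without celecoxib 5 it called 42 genes, without celecoxib 1 it called 1, Myd88, and without any other single library 0. With no treatment term it called 9, Myd88, Tcta, Clock, Dio2, Chrna1, Adamts4, Angptl2, Rnaseh2b and Crybg3. Adamts4, a matrix protease, had 13.9 CPM in vehicle 3 and 1.001 to 2.65 CPM in the other 14 libraries. The slope differed between treatments for 0 genes at an adjusted p under 0.05 and for 295 (1.95%) at an unadjusted p under 0.05.

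Among the genes of smallest p in the comparison of the groups, 5 in each direction are given, of which Myd88 and Tcta are described above. All of them were chosen by that p, so their separation between the groups follows in part from the choice. Crybg3, a crystallin-domain protein, had 35.3, 30.4, 24.8, 30.9 and 33.9 CPM in the aortas with most Arntl, against 21.3, 23.2, 22.4, 20.2 and 19.1 CPM in those with least, without overlap. For Crybg3 the log2 fold change was 0.55 ± 0.10 (unadjusted p = 0.000156). Kremen1, a Dickkopf receptor that dampens Wnt signalling, spanned 52.9 to 59.4 CPM, against 43.9 to 48.2 CPM (log2 fold change 0.31 ± 0.06, unadjusted p = 0.00017). Dtnbp1, which encodes dysbindin, spanned 23.9 to 28.8 CPM, against 19.99 to 22.4 CPM (0.34 ± 0.07, unadjusted p = 0.000373). For all 3 the groups stood apart, by a step that was small beside the level.

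Lrg1, a secreted glycoprotein of the acute phase response that acts on the endothelium, had the widest difference among these genes. It stood at 61.0, 26.2, 22.2, 37.3 and 60.8 CPM in the aortas with most Arntl, against 18.1, 17.0, 14.2, 9.69 and 11.7 CPM in those with least. The groups did not overlap, and vehicle 3 and celecoxib 1 were the 2 highest. The log2 fold change was 1.56 ± 0.30, 2.95-fold, with unadjusted p = 0.0004, and the libraries between had 14.3 to 25.8 CPM.

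Lower in the aortas with most Arntl was first Hrasls, a phospholipid-modifying enzyme, with 6.14, 5.69, 5.14, 4.94 and 4.78 CPM, against 8.88, 7.14, 7.98, 9.88 and 8.88 CPM in those with least. It had the smallest p of all genes tested, 8.85e-05 unadjusted, at a log2 fold change of -0.68 ± 0.11. Ptprz1, a receptor tyrosine phosphatase that binds pleiotrophin, had 119, 111, 164, 139 and 96.7 CPM, against 217, 159, 264, 221 and 208 CPM. Only celecoxib 5 and celecoxib 4 crossed, and the log2 fold change was -0.77 ± 0.16 (unadjusted p = 0.000567). Fam149a spanned 16.2 to 20.2 CPM, against 20.7 to 23.9 CPM (-0.34 ± 0.07, unadjusted p = 0.000563). Ppfia4, a liprin scaffold protein, spanned 7.37 to 10.9 CPM, against 12.2 to 15.2 CPM (-0.56 ± 0.12, unadjusted p = 0.000634).

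**Figure D4:**
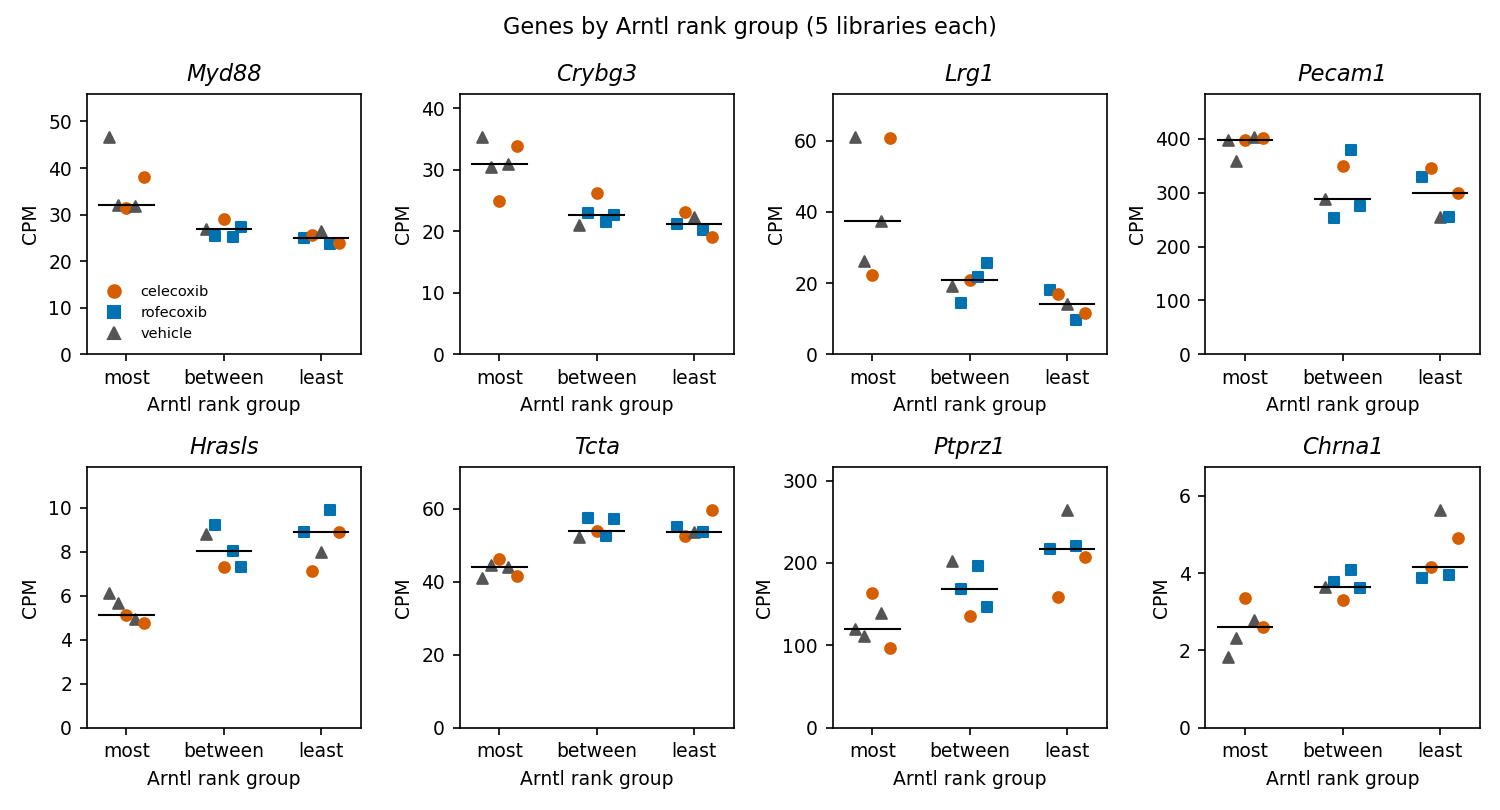
CPM of 8 genes in each library by Arntl rank group, coloured by treatment, with the median of each group as a line. Myd88, Crybg3, Lrg1 and Pecam1 were highest in the group with most Arntl, and Hrasls, Tcta, Ptprz1 and Chrna1 lowest, with the 5 libraries between nearer to the group with least by median for all 8.

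The list of clock outputs, which holds Dbp, Tef and Hlf, gave 8 of 20 higher and 1 lower, Hlf, at an unadjusted p under 0.05, against 4.89% and 4.16% of all genes. Its median log2 fold change was 0.26, against 0.0061 over all genes, and 0.16 without celecoxib 1. The list shares Tsc22d3, Klf9 and Pdk4 with the glucocorticoid list, Usp2 with the clock modifiers and Wee1 with the cell cycle list. Counts of these lists are therefore not separate results. Pdk4, a kinase that blocks glucose oxidation and is on the glucocorticoid and brown fat lists too, had 207, 171, 115, 174 and 229 CPM in the aortas with most Arntl, against 102, 158, 68.9, 64.8 and 66.0 CPM in those with least. Celecoxib 5 and celecoxib 4 crossed the groups. The log2 fold change was 0.97 ± 0.27 (unadjusted p = 0.00475), 1.96-fold. Leo1, a subunit of the PAF1 elongation complex, had 10.2, 12.5, 8.92, 10.9 and 6.30 CPM, against 5.68 to 7.79 CPM (0.54 ± 0.17, unadjusted p = 0.0081). Wee1, a mitotic kinase under E-box control, had 12.4 to 25.98 CPM, against 21.1 to 33.4 CPM (-0.37 ± 0.20, unadjusted p = 0.0868, and -0.22 without vehicle 3). Clock modifiers, a list that holds kinases, ligases and deacetylases that tune the loop, gave 0 of 20 higher and 1 lower, with a median of 0.02. The 1 was Per3, a period gene that is on the list of repressors too and was already counted there.

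Glucocorticoid-responsive genes had a positive sign in 23 of 25 members, against a positive sign in 51.7% of all genes. At an unadjusted p under 0.05, 10 were higher and 0 lower, against 4.89% and 4.16% of all genes, and the median log2 fold change was 0.78. Celecoxib 1 had the highest levels of many of them, and without it the median was 0.27. That library also stood apart over the whole transcriptome, as given above. Fkbp5, a chaperone that the glucocorticoid receptor induces, picked here after its values were seen, had 59.98, 220, 101, 193 and 926 CPM in the aortas with most Arntl, against 53.1, 198, 45.2, 76.6 and 126 CPM in those with least. Mt2, a metallothionein, had 315, 99.1, 33.3, 68.0 and 1802 CPM, against 32.0, 72.05, 32.1, 46.1 and 40.7 CPM. Vehicle 3 and celecoxib 1 stood high, and celecoxib 5 did not. The log2 fold change of Mt2 was 3.42 ± 1.03 (unadjusted p = 0.00754), 1.496 without celecoxib 1 and 0.58 without celecoxib 1 and vehicle 3. Angptl4, an inhibitor of lipoprotein lipase, had 27.1 to 56.004 CPM, against 14.2 to 35.9 CPM (0.88 ± 0.26, unadjusted p = 0.00625). Cdkn1a, a cell cycle inhibitor, had 44.0 to 149 CPM, against 28.6 to 48.2 CPM (1.01 ± 0.33, unadjusted p = 0.0124, and 0.61 without celecoxib 1).

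Of the 16 temperature and heat shock genes, 3 were higher and 0 lower at an unadjusted p under 0.05, against 4.89% and 4.16% of all genes. Their median was 0.19 (0.12 without vehicle 5). Hsph1, a large heat shock protein, had 113, 163, 124, 152 and 116 CPM in the aortas with most Arntl, against 111, 106, 108, 91.0 and 79.4 CPM in those with least. The groups did not overlap, though vehicle 3 and rofecoxib 3 nearly met, and the log2 fold change was 0.43 ± 0.13 (unadjusted p = 0.0062). Bag3, a co-chaperone, spanned 101 to 126 CPM, against 91.6 to 104 CPM (0.22 ± 0.08). Hspa8, the constitutive chaperone, spanned 810 to 1490 CPM, against 631 to 923 CPM (0.42 ± 0.17, and 0.28 without vehicle 5). Of 20 immediate early genes 3 were higher and 0 lower, beside the same shares of all genes, with a median of 0.02. Fosl2 spanned 150 to 205 CPM, against 101 to 157 CPM (0.42 ± 0.13). Klf4 spanned 34.7 to 53.2 CPM, against 31.6 to 42.2 CPM (0.28 ± 0.11), and Nr4a3 13.1 to 28.8 CPM, against 6.56 to 19.4 CPM (0.67 ± 0.28).

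Fat markers were highest in 2 vehicle libraries of the group with most Arntl. Brown adipocyte markers summed to 1280, 2253, 406, 1335 and 756 CPM in the aortas with most Arntl, against 741, 974, 666, 421 and 271 CPM in those with least. Vehicle 5 and vehicle 4 were the highest in brown and in white markers, where the sums were 4186 to 11654 CPM, against 2766 to 7452 CPM. The brown list had 3 of 19 members higher and 0 lower at an unadjusted p under 0.05, against 4.89% and 4.16% of all genes. Its median log2 fold change of 0.74 was 0.32 without vehicle 5, 0.19 with treatment as a term and -0.07 with the adipocyte mean as a term. The white list had 3 of 22 higher and 0 lower, beside the same shares of all genes. Its median of 0.66 was 0.41 without vehicle 4 and 0.12 with the adipocyte mean as a term. The adipocyte mean was taken over the genes of these lists themselves. Its term therefore draws their medians towards 0 by construction, and the part of fat content was not tested. Elovl3, an elongase that brown fat uses to lengthen fatty acids, had 5.14, 19.4, 0.388, 3.78 and 0.969 CPM, against 2.07, 1.33, 1.36, 0.581 and 0.0323 CPM, and its log2 fold change of 2.47 ± 1.02 was 1.23 without vehicle 5. The lipase Pnpla2 spanned 212 to 570 CPM, against 157 to 328 CPM (0.78 ± 0.26), Cfd, which encodes adipsin, 360 to 1004 CPM, against 269 to 433 CPM (0.66 ± 0.27, and 0.38 without vehicle 4), and Lpl, lipoprotein lipase, 310 to 1188 CPM, against 190 to 590 CPM (0.88 ± 0.40).

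Oxidative phosphorylation and citrate cycle genes had a positive sign in 30 of 30 members, against 51.7% of all genes. An unadjusted p under 0.05 was found for 1 of 30, against 9.04% of all genes. The 1 was Mdh2, a malate dehydrogenase, at 190, 259, 127, 212 and 198 CPM in the aortas with most Arntl, against 148, 186, 155, 142 and 118 CPM in those with least. Celecoxib 5, the lowest in fat markers of its group, was also below 4 of the 5 aortas with least Arntl. The list median of 0.30 was 0.15 without vehicle 5 and 0.03 with the adipocyte mean as a term.

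Blood transcripts were also higher in most of the aortas with most Arntl. Markers of red blood cells and platelets summed to 359, 269, 252, 207 and 116 CPM in the aortas with most Arntl, against 158, 48.8, 47.7, 29.1 and 127 CPM in those with least. Celecoxib 1 lay below rofecoxib 3 and celecoxib 2, and the other 4 aortas with most Arntl exceeded all with least. Of the 8 of 10 list members tested, 6 were higher and 0 lower at an unadjusted p under 0.05, against 4.89% and 4.16% of all genes, with a median of 1.55. Hba-a1, an alpha globin picked here after its values were seen, had 102, 75.1, 71.4, 61.0 and 24.5 CPM, against 39.0, 12.1, 9.37, 6.14 and 30.1 CPM (log2 fold change 1.79 ± 0.51, unadjusted p = 0.00543). The globin genes are near-identical pairs, so reads may be split between them. The part of blood in the other differences was not tested.

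Nerve markers were high in single libraries. Sympathetic neuron markers summed to 571 CPM in vehicle 4 and 68.8 to 98.0 CPM in the other 4 aortas with most Arntl, against 449, 1248, 80.4, 82.5 and 226 CPM in those with least. Rofecoxib 5, of the libraries between, had 841 CPM. All 18 members tested had a negative sign, against a positive sign in 51.7% of all genes, with a median log2 fold change of -1.53. An unadjusted p under 0.05 was found for 0 of 18, against 9.04% of all genes. The median was -3.997 without vehicle 4 and -0.30 without celecoxib 4. Chga, which encodes chromogranin A, had 3.43 CPM in vehicle 4 and at most 0.355 CPM in the other 4, against 3.13, 9.08, 0.226, 0.388 and 2.003 CPM (log2 fold change -1.85 ± 1.21, unadjusted p = 0.156). Schwann cell markers had 0 of 15 higher and 2 lower at an unadjusted p under 0.05, against 4.89% and 4.16% of all genes. Their median was -0.48, and 0.18 without celecoxib 4.

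Smooth muscle markers had 0 of 20 higher and 5 lower at an unadjusted p under 0.05, against 4.89% and 4.16% of all genes, with a median of -0.12. Tpm1, a tropomyosin, had 2344, 2503, 2742, 2541 and 1990 CPM in the aortas with most Arntl, against 2886, 2722, 3131, 3130 and 2990 CPM in those with least. Celecoxib 5 and celecoxib 4 crossed, and the log2 fold change was -0.30 ± 0.08 (unadjusted p = 0.00483). Kcnmb1, the beta subunit of the large-conductance potassium channel, spanned 263 to 317 CPM, against 322 to 356 CPM, without overlap (-0.18 ± 0.06, unadjusted p = 0.00873). Cnn1, which encodes calponin, spanned 1433 to 1743 CPM, against 1803 to 2085 CPM, also without overlap (-0.24 ± 0.08, unadjusted p = 0.013). With the adipocyte mean as a term the median of the list was -0.08.

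Endothelial markers gave 3 of 20 higher and 0 lower at an unadjusted p under 0.05, against 4.89% and 4.16% of all genes. The median was 0.25, and 0.12 without rofecoxib 2. Pecam1, an adhesion protein of endothelium and platelets, had 397, 359, 398, 403 and 402 CPM in the aortas with most Arntl, against 329, 345, 254, 256 and 300 CPM in those with least. The groups did not overlap, 4 of the 5 values with most Arntl lay between 397 and 403 CPM, and the log2 fold change was 0.40 ± 0.08 (unadjusted p = 0.000614). Its slope within treatments was 0.21 ± 0.07 (adjusted p = 0.332). Nos3, the endothelial nitric oxide synthase, spanned 24.6 to 58.0 CPM, against 22.7 to 38.2 CPM (0.53 ± 0.20, unadjusted p = 0.0245), and Cldn5, a claudin of tight junctions, 22.3 to 37.2 CPM, against 13.1 to 26.6 CPM (0.48 ± 0.18, unadjusted p = 0.0254). The summed endothelial level was 1317 to 1753 CPM, against 961 to 1565 CPM.

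**Figure D5:**
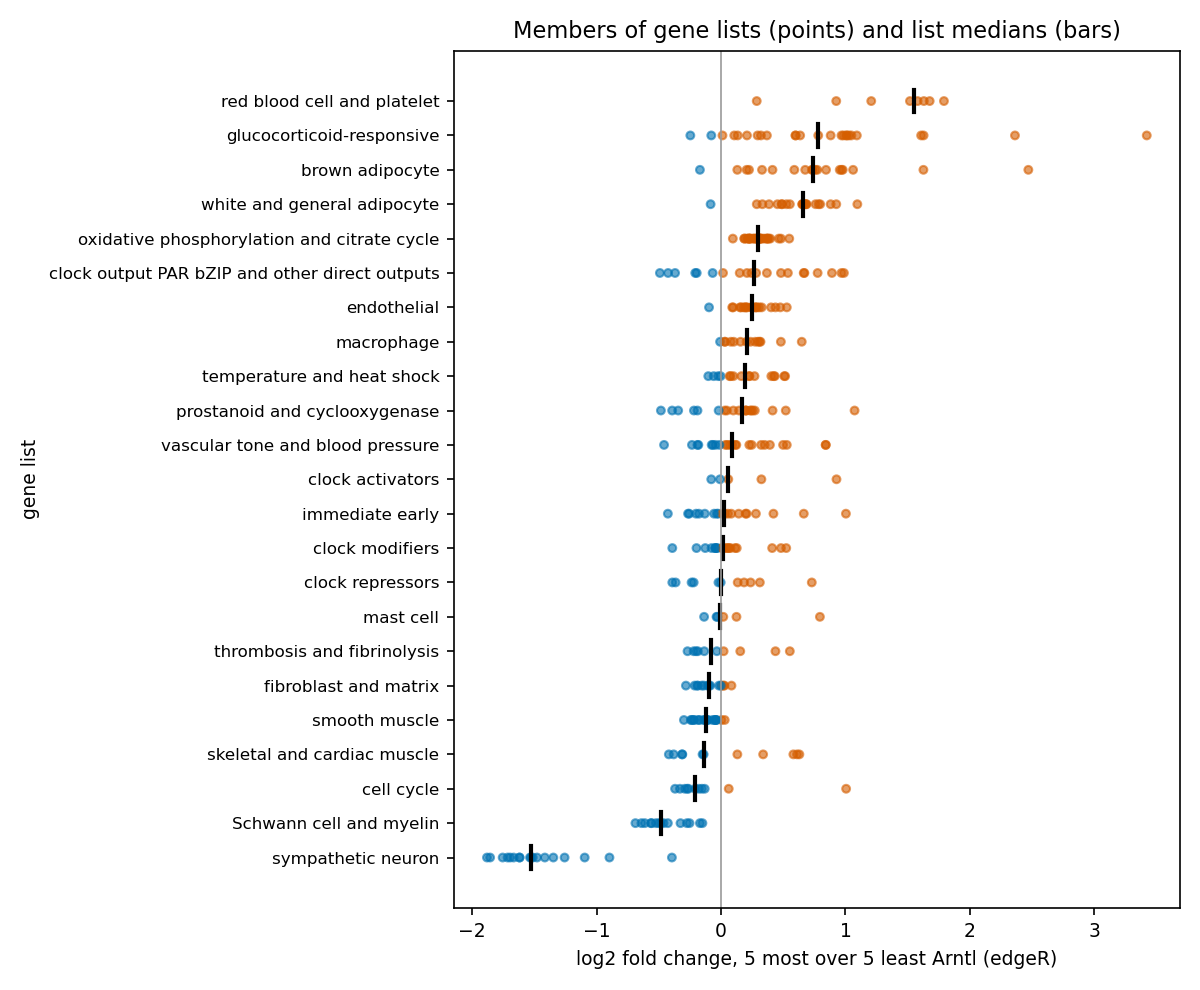
Log2 fold change of every tested member of 23 gene lists, 5 aortas with most over 5 with least Arntl (edgeR), with list medians as bars; orange points are positive and blue points negative. Blood (1.55), glucocorticoid (0.78) and fat lists (0.74 and 0.66) lie to the right, clock repressors near 0 and sympathetic markers (-1.53) to the left.

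Both cyclooxygenase genes, the source of prostanoids, overlapped between the groups. The inducible enzyme is the target of the drugs. Ptgs2, the inducible enzyme, had 28.8, 22.9, 90.5, 27.3 and 44.8 CPM in the aortas with most Arntl, against 29.7, 43.8, 31.7, 46.3 and 30.9 CPM in those with least. Celecoxib 5 was the highest of all 15 libraries, and without it the log2 fold change of 0.23 ± 0.36 was -0.22. Ptgs1, the constitutive enzyme, spanned 12.4 to 21.9 CPM, against 8.59 to 20.9 CPM. With a median of 0.17 (0.07 without celecoxib 5), 1 of 20 prostanoid genes tested was higher and 0 lower at an unadjusted p under 0.05. Over all genes these shares were 4.89% and 4.16%. The 1 was Ptger1, a prostaglandin E2 receptor, at 48.5 to 63.1 CPM, against 45.4 to 52.0 CPM (0.20 ± 0.08, unadjusted p = 0.0257).

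Over all genes, 4.89% were higher and 4.16% lower at an unadjusted p under 0.05, the shares to set beside the lists that follow. Of 23 genes of vascular tone, 3 were higher and 1 lower, with a median of 0.09. Besides Nos3 and Kcnmb1, given above, they were Ace, the angiotensin-converting enzyme, at 438, 480, 414, 489 and 681 CPM, against 375, 408, 352, 443 and 390 CPM (0.35 ± 0.14, unadjusted p = 0.0339, and 0.19 without celecoxib 1), and Ece1, an endothelin-converting enzyme named here after its p was seen. Thrombosis genes gave 0 of 10 in either direction, with a median of -0.08. Cell cycle genes gave 1 of 11 higher, Cdkn1a, and 1 lower, the replication helicase subunit Mcm2 at 7.43 to 9.63 CPM, against 9.07 to 12.3 CPM (-0.33 ± 0.10, unadjusted p = 0.00757), with a median of -0.21. Macrophage markers gave 1 of 15 entries higher and 0 lower (median 0.21). These entries are 14 genes, because Adgre1 was entered under its older symbol Emr1 too. Fibroblast and matrix markers gave 0 of 15 higher and 1 lower (-0.10). Skeletal and cardiac muscle gave 0 of 11 higher and 1 lower (-0.14, and 0.17 without rofecoxib 3) and mast cells 1 of 6 higher and 0 lower (-0.01). Lymphocyte and mesothelial lists had 2 tested members each, of 15 and 10, and 0 in either direction.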

How the data were processed

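RNA was measured in 15 aortas. Per the submitters' processing notes, CASAVA 1.8.2, STAR 2.5.2a and mm9 were used; no source used here gives the counting tool or its strand setting, so overlapping or antisense genes cannot be told apart. The authors deposited 1 table of gene counts, whole numbers for 37681 genes and 15 libraries, with totals that spread by 0.0971% and 0 counts in 37 mitochondrial genes. Each column was mapped to a sample by its title.

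CPM were computed from the column totals, and the 5 libraries of most and the 5 of least Arntl CPM were compared. The members and gene lists were chosen with earlier results of these data known. Counts were tested in edgeR 4.0.16 (R 4.3.3; TMM factors 0.956 to 1.04, filterByExpr, robust quasi-likelihood fit, Benjamini-Hochberg adjustment, threshold 0.05) without Arntl. A second edgeR fit took the slope on log2 Arntl CPM with treatment as a term, another the difference of that slope between treatments. DESeq2 1.42.0 and limma 3.58.1 were alternatives, beside other scalings, filters, group sizes, covariates, a replicate block and leaving out each library. Correlations and their permutation tests (two-sided, 100000 permutations) used edgeR's log2 CPM, with TMM scaling and a prior count of 2. P-values measure the spread between mice.

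Named genes were all clock genes, the 5 of smallest p in each direction (mean CPM of at least 1, without predicted genes), the 3 of smallest p in most lists, the 5 most and 5 least correlated with Arntl, and Ptgs1 and Ptgs2; others named are marked. Some genes that the rule names are given by level only, and 1 clock gene is not reported here. Deposited symbols Gm129 and Emr1 were read as Ciart and Adgre1. No library repeats another of its treatment: the lowest chi-square per gene of any such pair was 13.1.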

Additional observations from a re-analysis of the deposited data

Results flagged for a closer look

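Within each group of 5, a library was singled out where its gap to the next value exceeded 0.71 of the group's range (Dixon's test), which about 1 group in 20 does by chance; 13 of 117 groups tested did, many of them through the same libraries.

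Vehicle 3 stood above the other 4 aortas with most Arntl in Clock (67.6 CPM, against 45.7 to 49.5) and in Npas2 (12.34 CPM, against 3.20 to 5.56), and below them in Angptl2 (153 CPM, against 186 to 194). Celecoxib 1 stood above its group in Ciart, listed as Gm129 (67.3 CPM, against 5.88 to 18.3), Bhlhe41 (71.1 CPM, against 34.6 to 44.0), Mt2 (1802 CPM, against 33.3 to 315) and Ace (681 CPM, against 414 to 489). It stood below in Nfil3 (10.8 CPM, against 22.3 to 26.2) and Kcnmb1 (263 CPM, against 312 to 317).

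Vehicle 5 was apart in Elovl3 (19.4 CPM, against 0.388 to 5.14) and low in Pecam1 (359 CPM, against 397 to 403). Vehicle 4 was apart in Chga (3.43 CPM, against at most 0.355). Among the aortas with least Arntl, celecoxib 2 was apart in Angptl2 (257 CPM, against 197 to 214).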

How the results depend on the processing

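The count of 0 genes called between the 5 aortas with most and the 5 with least Arntl was also 0 under other scalings and filters, limma-voom, adipocyte or sympathetic terms, 4 against 4, 6 against 6, 2 against 2 of each treatment, all 15 libraries in 1 fit, without each of the 10 libraries in turn (0 to 0) and, chosen after seeing the data, without celecoxib 1 and vehicle 3 together. It was 60 with DESeq2, 1 with treatment as a term and, chosen after seeing the data, 10 with the 5 most against the other 10. The slope called 0 genes, 9 with no treatment term, 130 with DESeq2 and 0 to 42 without 1 library. Same-numbered libraries of different treatments correlated at -0.724 to 0.766 in their deviations, above 0.1 in 6 of 15 pairs, so the numbers were not taken as pairs; with the replicate block the comparison called 0 genes (782 at an unadjusted p under 0.05) and the slope 0. The alternatives gave 1733 values for 69 results, each the log2 fold change or the slope of 1 gene, and some genes count under both. Of these values, 1666 kept direction and side of the threshold, 43 passed it that had not, and 24 changed sign, in 7 genes. The log2 fold change of Npas2 was 0.23 with the block, 0.14 at 4 against 4 and 0.0221 at 2 against 2 of each treatment (-0.47 to 0.0753 without 1 library). At 6 against 6 the log2 fold change of Nr1d1 was 0.0689. The log2 fold change of Per1 was -0.005 with limma-voom, -0.57 with the block, -0.25 at 4 against 4 and -0.0319 without celecoxib 1 and vehicle 3 (-0.22 to 0.32 without 1 library). For Ciart, the log2 fold change of Gm129 was -0.33 with limma-voom, -0.26 with the sympathetic term, -0.88 with the block, -0.79 at 4 against 4 and -0.51 without the 2 libraries (-0.75 to 0.44). At 4 against 4 the log2 fold change of Bhlhe40 was -0.0106, and it was -0.25 without the 2 (-0.0114 to 0.50). With the block, the log2 fold change of Cry1 was -0.066 and the log2 fold change of Ptgs2 -0.38 (-0.22 to 0.39 without 1 library). The cause was not tested. Of 598 list medians, 26 moved by more than the median standard error of the list's single genes in the main fit, in 12 of 23 lists. Smaller moves of a median were not counted. Arntl counts of 34 to 65 reads in the 10 lower libraries limit how well these are ranked.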
